A study of Mus musculus with 6 samples.

Results

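The genes examined here encode 5 subunits of the phagocyte NADPH oxidase (NOX2): Cybb, Cyba, Ncf1, Ncf4 and Rac2. They were taken by gene symbol from a table of 54532 genes, and all 5 were found and passed the filter on low values. Polyadenylated RNA of mouse cells labelled BMDM, which stands for bone marrow-derived macrophages, was sequenced in 6 libraries after co-culture with the ovarian surface epithelial tumour line ID8, also of the mouse. In the 3 cisplatin libraries the ID8 cells had first received 40 µM of the DNA-crosslinking platinum compound cisplatin, and in the 3 PBS libraries phosphate-buffered saline (PBS). Both groups shared the co-culture, and the methods of the study describe the cells as monocytes from the marrow of C57BL/6 mice, kept in medium with serum and no named growth factor. The length of the co-culture and the way in which BMDMs were separated from ID8 cells are not given in the sources used here, nor is whether the 3 libraries of a group came from separate mice or cultures. The methods speak of biological replicates without saying what was replicated. The p-values therefore measure only the spread between these libraries, which may be technical.

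NOX2 is the enzyme with which macrophages and neutrophils make superoxide, by passing electrons from NADPH across the membrane to oxygen. Its membrane part pairs gp91phox (Cybb), which carries the electrons, with p22phox (Cyba), which stabilises it and offers a docking site. On stimulation cytosolic subunits, among them p47phox (Ncf1), the organiser, and p40phox (Ncf4), which binds a phosphoinositide of the phagosome, move to the membrane together with the GTPase Rac2. The oxidase serves the killing of microbes, and B lymphocytes also express most of these genes.

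The RefSeq promoter set used here held entries for 3 of the 5 members. Their sequence is shown because PU.1 and IRF transcription factors are known regulators of Cybb and were measured in the same libraries. Each stretch runs 5′ to 3′ on the strand of the gene, from 250 bases before the start that RefSeq gives to 50 bases from it on, and capitals mark matches to the motifs named after the sequences. On GRCm38.p6 the Cybb promoter lies at chrX:9469275-9469574 (minus strand), that of Cyba at chr8:122432891-122433190 (minus strand) and that of Ncf1 at chr5:134229576-134229875 (minus strand). The RefSeq start of Cybb lies inside the span that the deposited table gives for the gene, and not at its 5′ end.
Cybb: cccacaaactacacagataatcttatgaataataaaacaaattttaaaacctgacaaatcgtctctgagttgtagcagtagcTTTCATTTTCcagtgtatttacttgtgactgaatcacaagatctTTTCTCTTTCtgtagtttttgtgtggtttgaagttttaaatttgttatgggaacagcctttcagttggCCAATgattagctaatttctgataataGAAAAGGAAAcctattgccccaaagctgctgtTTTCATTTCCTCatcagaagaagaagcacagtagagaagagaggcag
Cyba: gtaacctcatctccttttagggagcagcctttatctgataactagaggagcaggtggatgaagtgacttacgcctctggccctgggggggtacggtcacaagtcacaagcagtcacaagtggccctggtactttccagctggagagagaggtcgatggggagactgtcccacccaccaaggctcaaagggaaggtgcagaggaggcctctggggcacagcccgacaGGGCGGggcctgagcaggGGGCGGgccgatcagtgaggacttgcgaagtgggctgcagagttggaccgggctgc
Ncf1: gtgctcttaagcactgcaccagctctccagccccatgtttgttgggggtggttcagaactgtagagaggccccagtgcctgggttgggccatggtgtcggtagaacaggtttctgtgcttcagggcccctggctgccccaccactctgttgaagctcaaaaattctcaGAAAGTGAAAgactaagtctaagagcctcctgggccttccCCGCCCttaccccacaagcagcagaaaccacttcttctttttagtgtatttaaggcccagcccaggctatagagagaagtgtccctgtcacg

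The motifs were chosen after these 3 promoters had been read, and both strands were searched. The PU.1 and IRF composite element, searched as GGAA and GAAA with any 2 bases between them, was present in the Cybb promoter from 3 to 12 bases after the start base and in 2.73% of the 32544 mouse promoters in RefSeq. There it overlaps GAGGAA, the PU.1 core, which 28.1% of all promoters hold. The interferon response type motif, GAAA and GAAA with any 2 bases between them, occurred at 3 places before the start in the Cybb promoter and 73 to 82 bases before the start in that of Ncf1, against 3.45% of all promoters with at least 1 match. The CCAAT box of the Cybb promoter lies 52 to 56 bases before the start (37.4% of all promoters have one). The Cyba promoter held neither of the IRF-type motifs but held the GC box GGGCGG at 2 places within 24 bases of the start, and Ncf1 held it once on the other strand (35.9% of all promoters). GC content was 35.3% for Cybb, 60.7% for Cyba and 54% for Ncf1.

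All 5 subunit genes had higher FPKM (fragments scaled to gene length in kilobases and to library size) in each cisplatin library than in any PBS library, with changes between 0.22 and 0.88 on the log2(FPKM + 1) scale, but the sign of the fitted change turned for every one of them when libraries were scaled to pan-leukocyte or Y-linked genes, although for Cyba the turned change did not pass the adjusted p. Cyba (1.84-fold) and Cybb (1.48-fold), the membrane pair, had the larger ratios of means, and Ncf1, Ncf4 and Rac2 lay between 1.17-fold and 1.18-fold. At an adjusted p under 0.05 (limma, Benjamini-Hochberg over the 13441 genes tested) 5 of 5 members passed, where 32.9% of all tested genes passed in the higher direction and 35.1% in the lower. None of the 5 reached the thresholds of the study, which also ask for a change of 1 or more in size on the log2 scale, by limma (0 of 5, with 5 of 5 at an unadjusted p under 0.05, as 34.3% of all genes in the higher direction) or by voom on the recovered reads (0 of 5). By voom, too, 5 of 5 passed the adjusted p, where 39.2% of all genes were higher and 32.1% lower. Those thresholds were reached by 628 genes in the higher direction (4.67%) and by 1514 in the lower (11.3%). Groups that did not overlap, with cisplatin higher, were found for 35.2% of all tested genes, and with cisplatin lower for 37.2%. Read against that background, a rise past the adjusted p was common in these libraries.

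**Figure D1:**
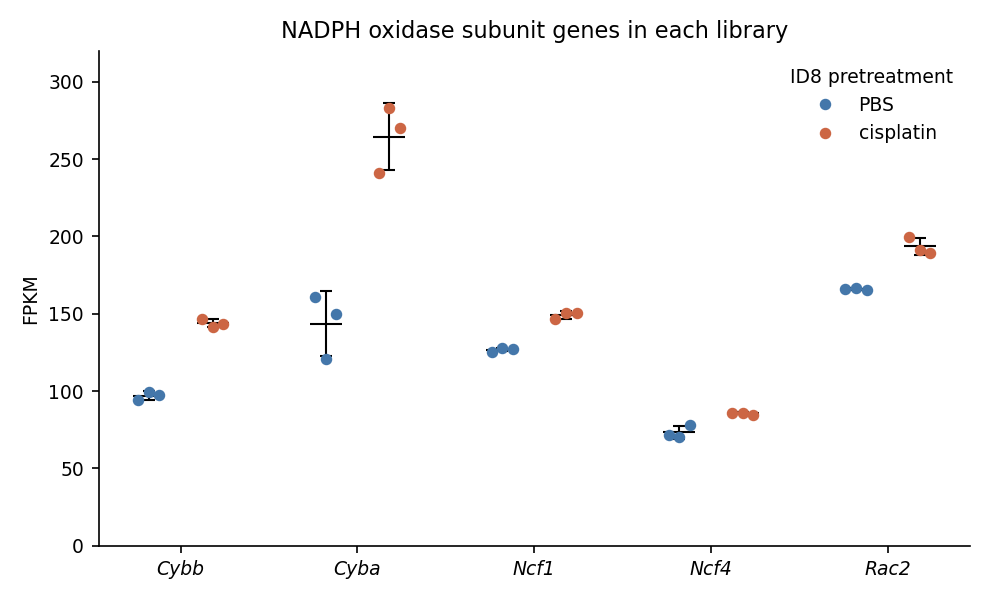
FPKM (vertical axis, linear, from 0) of the 5 subunit genes in each library, with PBS in blue and cisplatin in orange. Points are libraries and bars give the mean and SD of 3. Every orange point lies above every blue point of the same gene in the FPKM as deposited. Under the pan-leukocyte and Y-linked scalings described in the text the fitted changes were below 0, with Cyba not past the adjusted p.

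Cybb (ENSMUSG00000015340, GRCm38 chromosome X, 9435252 to 9487771, minus strand) encodes the catalytic subunit, and its principal transcript has 13 exons. Its FPKM was 94.1, 99.6 and 97.3 with PBS and 146.5, 141.4 and 143.2 with cisplatin. The groups were well apart, and the spread within each was small. The mean went from 97.0 ± 2.74 to 143.7 ± 2.58 (SD, n = 3 each), and the fitted log2 change of 0.56 (SE 0.034, limma adjusted p = 9.73e-06) exceeded 85.0% of all tested genes. Between 8762 and 14473 reads per library lay behind these values, and no other annotated gene overlaps the locus.

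Cyba (ENSMUSG00000006519, chromosome 8, 122424776 to 122432930, minus strand, 6 exons) encodes the partner that every NOX2 complex needs for stability. It measured 160.5, 120.4 and 149.8 FPKM with PBS and 240.8, 283.0 and 269.8 with cisplatin. PBS replicate 2 was the lowest library and the groups did not overlap, but Cyba was the most variable member, with a coefficient of variation of 14.5% in PBS. The mean went from 143.6 ± 20.8 to 264.5 ± 21.6, a difference of 0.88 on the log2 scale (SE 0.113, adjusted p = 0.000391). It was the shortest gene of the 5, with 1949 to 4828 reads per library, and the one other gene that overlaps it, Gm20388, had 0 reads.

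Ncf1 (ENSMUSG00000015950, chromosome 5, 134220053 to 134229625, minus strand, 11 exons) encodes the organiser whose phosphorylation starts assembly. Its FPKM was 125.5, 127.6 and 126.8 with PBS and 146.3, 150.4 and 150.6 with cisplatin. The libraries of a group were close together and the groups did not overlap. The log2 fold change was 0.23 (SE 0.029, adjusted p = 0.000353), from a mean of 126.6 ± 1.08 to 149.1 ± 2.44. Gtf2ird2, on the opposite strand, shares 11.1% of the exon bases of Ncf1, and whether reads were counted by strand is not stated. Gtf2ird2 had 506 to 751 reads in a library, where Ncf1 had at least 7205.

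Ncf4 (ENSMUSG00000071715, chromosome 15, 78244801 to 78262580, plus strand, 10 exons) encodes the lipid-binding subunit. It measured 71.6, 70.1 and 78.1 FPKM with PBS and 86.0, 85.9 and 84.7 with cisplatin. PBS replicate 3 came closest to the cisplatin libraries, and the groups did not overlap. The mean went from 73.2 ± 4.24 to 85.5 ± 0.70, a difference of 0.22 on the log2 scale (SE 0.046, adjusted p = 0.00413), the highest adjusted p of the 5.

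Rac2 (ENSMUSG00000033220, chromosome 15, 78559167 to 78572783, minus strand, 7 exons) encodes the GTPase of blood cells that completes the complex. Its FPKM was 166.0, 166.4 and 165.3 with PBS and 199.8, 191.3 and 189.5 with cisplatin. The PBS libraries were nearly equal, and all cisplatin libraries lay above them. The mean went from 165.9 ± 0.58 to 193.5 ± 5.55, or 0.22 on the log2 scale (SE 0.032, adjusted p = 0.000796). After quantile normalisation the change was 0.14, which is 0.034 above the median of all tested genes under that setting (0.10). Runs of 50 bases in the principal transcripts were compared with annotated transcripts of other genes. Cybb, Cyba and Ncf4 shared none, Rac2 shared 1.34% and Ncf1 shared 5.65%. Exons outside the principal transcripts and unannotated copies were not searched.

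The order of the FPKM levels, which are per length of gene, differed between the groups. With PBS it ran Rac2, Cyba, Ncf1, Cybb and Ncf4, where the ranges of Cyba and Ncf1 overlapped and Cyba was above Ncf1 in 2 of 3 libraries. With cisplatin Cyba came first, before Rac2, Ncf1, Cybb and Ncf4, and the ranges of Ncf1 and Cybb overlapped. All other neighbours in either order had ranges that did not meet. Taken per kilobase of the principal transcript, an alternative added after the data were seen, Cyba had the highest mean in both groups (200.5 ± 29.0 with PBS and 369 ± 30.1 with cisplatin), although in PBS replicate 2 it lay below Ncf1 and Rac2. Among the 13441 tested genes, Cyba ranked 246 by mean FPKM with PBS and 99 with cisplatin, and Ncf4, the lowest member, ranked 618 and 486. The sum over the 5 members was 606 ± 19.3 FPKM with PBS and 836 ± 16.3 with cisplatin.

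The direction of these changes depended on what the libraries were scaled to. Scaled to the total of recovered reads, the log2 fold changes were 0.65 for Cybb, 0.97 for Cyba, 0.32 for Ncf1, 0.31 for Ncf4 and 0.31 for Rac2. Scaled to 10 pan-leukocyte genes they were -0.34 for Cybb (adjusted p = 0.000231), -0.019 for Cyba (0.861), -0.67 for Ncf1 (1.05e-06), -0.67 for Ncf4 (3.74e-06) and -0.68 for Rac2 (3.38e-06), all by limma. Thus 4 of 5 members were then lower at an adjusted p under 0.05, as were 80.8% of all tested genes, and 0 of 5 were higher (4.75% of all). Scaling to 4 Y-linked genes gave -0.43, -0.11, -0.76, -0.76 and -0.77 in the same order of genes, with Cyba alone not past the adjusted p (0.494) and 82.6% of all genes lower against 3.71% higher. The median of all tested genes moved to -0.76 and -0.83 under these scalings, from -0.0011. Relative to that median the members stayed above it, Cyba by 0.74 and 0.72 and Cybb by 0.42 and 0.40, whereas Ncf1, Ncf4 and Rac2 lay within 0.09 of it. In bulk RNA of this kind, fewer cells of a type and less RNA per cell cannot be told apart.

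**Figure D2:**
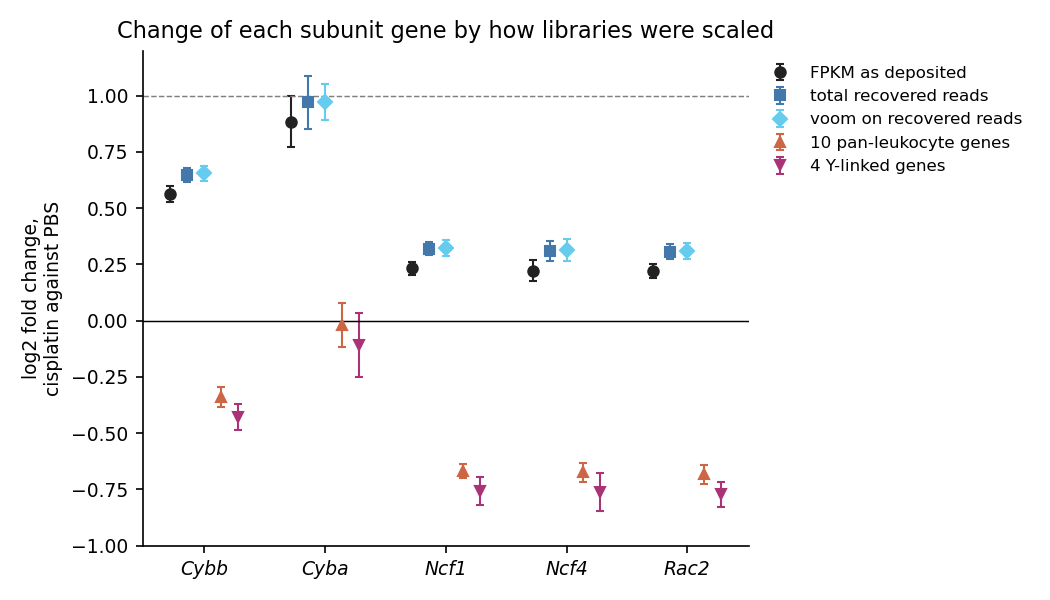
Log2 fold change of each subunit gene, cisplatin against PBS, under 5 ways of scaling the libraries. Bars give the SE of the fit, the dashed line marks the fold threshold of 1, and the solid line marks 0. The values are above 0 for the FPKM as deposited, the recovered totals and voom, and below 0 for the pan-leukocyte and Y-linked scalings.

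Markers of the cells in the co-culture moved with the same groups. All 10 macrophage markers were higher at an adjusted p under 0.05 in the FPKM as deposited, and 4 were higher and 3 lower under either the pan-leukocyte or the Y-linked scaling (median log2 fold change 0.90, against 0.022 and -0.055). Their summed level was 1641 to 1651 FPKM with PBS and 4201 to 4356 with cisplatin. Lyz2 (lysozyme) measured 1161 ± 10.8 and 3459 ± 80.4 FPKM, and Cd68 156.3 ± 8.92 and 179.3 ± 2.52. Of the 12 neutrophil and granulocyte precursor markers 11 were higher, whereas 7 were higher and 2 lower under the pan-leukocyte scaling and 6 higher and 3 lower under the Y-linked one (median 1.35, against 0.46 and 0.37). Their summed level was 4962 to 5115 and 9302 to 9534 FPKM, led by S100a9 (3105 ± 134.1 and 5233 ± 126 FPKM) and S100a8 (1423 ± 94.2 and 2581 ± 22.3 FPKM), and S100a9 turned to the lower side under the pan-leukocyte scaling (-0.15, adjusted p = 0.0162). S100a9 was thus above Lyz2 in both groups of libraries labelled BMDM, although Ly6g, which defines mature neutrophils, was at 2.81 ± 0.46 and 3.15 ± 0.36 FPKM and did not pass (adjusted p = 0.349), and was lower under the pan-leukocyte (-0.55, adjusted p = 0.00282) and Y-linked (-0.62, adjusted p = 0.000976) scalings. Lymphocyte markers summed to 196 to 205 and 444 to 455 FPKM, with 6 of 7 tested genes higher, and were led by the B-cell receptor genes Cd79b (79.8 ± 2.70 and 177.8 ± 3.93) and Cd79a (63.9 ± 3.62 and 146.7 ± 6.34), while Cd3d, Cd3e, Cd3g and Cd4 lay below the filter. Of these 7, 4 were higher and 2 lower under the pan-leukocyte scaling and 2 higher and 2 lower under the Y-linked one (median 1.04, against 0.15 and 0.060).

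ID8 markers moved the other way, from a summed level of 1208 to 1290 FPKM with PBS to 220.1 to 239 with cisplatin, with 7 of 9 tested genes lower and 2 higher. Under both scalings 7 were lower and the other 2 did not pass. Krt19, a keratin, measured 587.6 ± 28.8 and 51.1 ± 3.80 FPKM, and Sparc, a matrix protein, 231.1 ± 6.21 and 49.7 ± 2.30. Krt7, Epcam and Igfbp5 lay below the filter. Of the 10 pan-leukocyte genes 9 were higher, with a summed level of 1212 to 1270 and 1980 to 2043 FPKM and a median log2 fold change of 0.95, which was above that of every member. Under the scaling to these genes themselves 4 were higher and 3 lower, and under the Y-linked scaling 2 were higher and 4 lower. Fcer1g, the most abundant of them, measured 406.8 ± 22.8 and 433.7 ± 10.7 FPKM (adjusted p = 0.126), and Cd53 238.3 ± 9.58 and 381.9 ± 16.0. Of the sex-linked genes, Xist fell from 42.7 ± 5.35 to 7.79 ± 0.19 FPKM, and Eif2s3y, on the Y chromosome, rose from 10.7 ± 1.28 to 17.8 ± 0.27. Among the 4 Y-linked genes used for scaling, Ddx3y rose most (log2 fold change 1.15) and Uty least (0.55). Under that scaling Ddx3y was still higher (0.23, limma adjusted p = 0.00675) and Eif2s3y was lower (-0.25, adjusted p = 0.00769). Uty and Kdm5d did not pass. The methods do not give the sex of the mice that gave the marrow. No marker on any of these lists was at 0 in all libraries. The part of cell makeup in the changes of the oxidase genes was not tested.

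Ratios between subunits within a library do not depend on scaling. The ratio of Cybb to Cyba FPKM was 0.586, 0.827 and 0.649 with PBS and 0.608, 0.500 and 0.531 with cisplatin, so that the groups overlapped (difference of mean log2 ratios -0.32, exact permutation p = 0.2, 0.267 adjusted over 4 ratios), and without PBS replicate 2 the difference was -0.18. Ncf1 to Ncf4, both cytosolic, gave 1.75, 1.82 and 1.63 against 1.70, 1.75 and 1.78, a difference of 0.0097 that was smaller than the SD in either group (0.084 and 0.032, exact permutation p = 0.9) and that was -0.036 without PBS replicate 3, -0.0042 without cisplatin replicate 3 and 0.046 without PBS replicate 2. Ncf1 to Cybb, the organiser against the catalytic subunit, was 1.33, 1.28 and 1.30 with PBS and 0.998, 1.06 and 1.05 with cisplatin. Here the groups were apart, with a difference of -0.33 (exact permutation p = 0.1, adjusted 0.2). Rac2 to Rac1, its widely expressed relative, was 1.94, 1.87 and 1.95 with PBS and 2.72, 2.80 and 2.83 with cisplatin, again apart, with a difference of 0.54 (exact permutation p = 0.1, adjusted 0.2). The tests were two-sided, and 0.1 is the smallest p that 3 against 3 libraries allow. Rac1 shares 51.4% of its exon bases with Daglb on the opposite strand, which had 264 to 431 reads in a library where Rac1 had at least 4967.

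**Figure D3:**
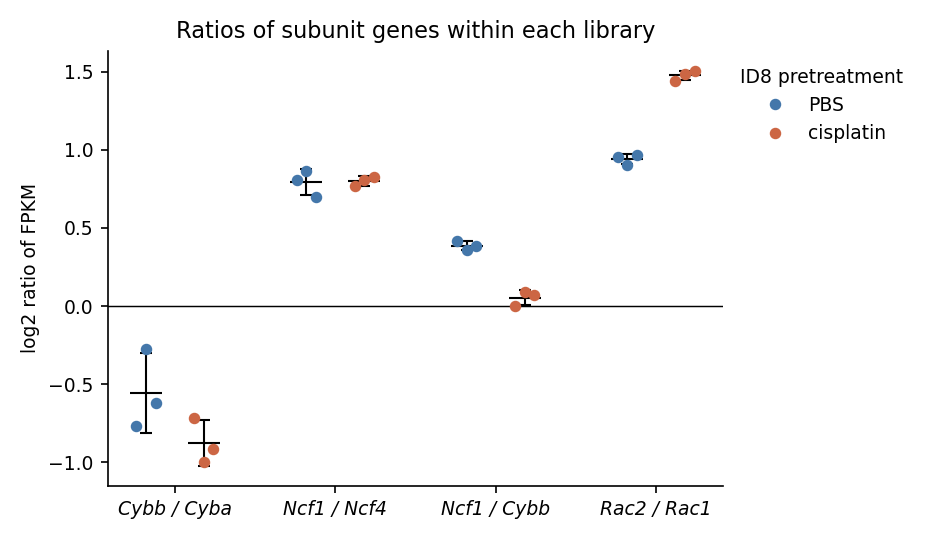
Log2 ratio of FPKM for 4 pairs of genes in each library, PBS in blue and cisplatin in orange, with the mean and SD of 3 libraries. The groups do not overlap for Ncf1 to Cybb and Rac2 to Rac1, and they overlap for Cybb to Cyba and Ncf1 to Ncf4.

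Of 4 tested partners of assembly reported here, 2 rose and 1 fell at an adjusted p under 0.05, and 0 of the 4 reached both thresholds by limma. For comparison, 32.9% of all tested genes rose and 35.1% fell past that adjusted p. Under either the pan-leukocyte or the Y-linked scaling 0 were higher and 4 lower, where 80.8% and 82.6% of all genes were lower. Rac1 fell from 86.4 ± 2.30 to 69.6 ± 3.48 FPKM (log2 fold change -0.31, adjusted p = 0.00076). Rap1a, a GTPase found with the membrane part, rose from 49.3 ± 0.95 to 55.1 ± 4.10 FPKM (0.15, adjusted p = 0.0450). It turned to -0.74 and -0.83 under the pan-leukocyte and Y-linked scalings, past the adjusted p in both. Cybc1, a chaperone of the membrane pair, measured 24.6 ± 1.27 and 23.0 ± 0.79 FPKM and did not pass (adjusted p = 0.131). The list median was 0.029 (0.011 without cisplatin replicate 1 and 0.016 without PBS replicate 3), and -0.85 or -0.94 under the pan-leukocyte or Y-linked scaling, against -0.0011 over all tested genes.

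The other NOX and DUOX enzymes and their partners, which make reactive oxygen in epithelia and elsewhere, were barely detected. None of these 9 genes passed the filter, and their summed level was 0.566 to 0.678 FPKM with PBS and 0.254 to 0.591 with cisplatin. Nox1 measured 0.055 ± 0.015 and 0.14 ± 0.061 FPKM, and Nox4 0.0124 ± 0.0160 and 0.0235 ± 0.0103. With 2 to 11 reads per library for Nox1 and 0 to 5 for Nox4, no difference in these genes was tested.

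Of 9 genes, namely Rac3 and 8 that activate or hold Rac, 8 rose at an adjusted p under 0.05 and none fell. The shares of all tested genes were 32.9% and 35.1%. The list median was 0.45, and all but Rac3 were on the higher side. That median turned to -0.37 under the pan-leukocyte scaling and -0.45 under the Y-linked one. Under either, 5 of the 9 were lower, as were 80.8% and 82.6% of all genes. Under the pan-leukocyte scaling 1 was higher (4.75% of all), and under the Y-linked one 0 were (3.71%). Dock2, a Rac exchange factor of blood cells, was the only one past both thresholds, with 15.4 ± 0.20 FPKM in PBS and 33.5 ± 1.07 in cisplatin (log2 fold change 1.07, adjusted p = 8.03e-07). That call was lost under the pan-leukocyte scaling, where Dock2 was still higher past the adjusted p (0.21, limma adjusted p = 0.00185). It was also lost under the Y-linked one, at 0.12 (adjusted p = 0.137). Vav1, an exchange factor downstream of receptors, rose from 59.1 ± 0.83 to 106.6 ± 5.57 FPKM (0.84). Arhgdib, which holds Rac2 in the cytosol, rose from 152 ± 3.70 to 293.4 ± 9.62 (0.94). Neither Vav1 (-0.057 and -0.15) nor Arhgdib (0.040 and -0.049) passed the adjusted p under the pan-leukocyte and Y-linked scalings.

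Kinases and lipid enzymes that act on the oxidase moved both ways in the FPKM as deposited. At an adjusted p under 0.05, 9 of 14 rose and 4 fell, where 32.9% of all tested genes rose and 35.1% fell. Under the pan-leukocyte scaling 0 were higher and 12 lower, and under the Y-linked one 0 and 13. All tested genes were lower there in 80.8% and 82.6% of cases. The list median was 0.44, and -0.45 or -0.54 under the pan-leukocyte or Y-linked scaling. Prkcd, a kinase of p47phox in myeloid cells, rose from 67.4 ± 0.59 to 93.8 ± 3.97 FPKM (log2 fold change 0.47), and Prkcb rose from 15.6 ± 0.46 to 24.2 ± 0.70 (0.60). Both were lower past the adjusted p under the 2 scalings, at -0.43 and -0.51 for Prkcd and -0.26 and -0.35 for Prkcb. Their relative Prkca fell from 11.2 ± 0.78 to 3.89 ± 0.090 FPKM (-1.32, adjusted p = 2.47e-06), the only one of the 14 past both thresholds.

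Genes for NADPH supply and for charge compensation were higher in 7 of 8 cases and lower in 1 at an adjusted p under 0.05. This held for the FPKM as deposited, where 32.9% of all tested genes were higher and 35.1% lower. Under the pan-leukocyte scaling 1 was higher and 6 lower (80.8% of all genes lower), and under the Y-linked one 0 and 6 (82.6%). The list median was 0.48, turning to -0.39 and -0.47 under the pan-leukocyte and Y-linked scalings. Hvcn1, the proton channel that balances the charge moved by NOX2, rose from 11.3 ± 0.80 to 25.4 ± 2.91 FPKM (log2 fold change 1.10, adjusted p = 4.35e-05), a call that was lost at 0.25 under the pan-leukocyte scaling and 0.16 (adjusted p = 0.227) under the Y-linked one. G6pdx, which feeds the pentose phosphate pathway, rose from 86.7 ± 0.99 to 97.7 ± 2.21 (0.17, adjusted p = 0.00254). Under the pan-leukocyte and Y-linked scalings G6pdx turned to -0.73 and -0.82, past the adjusted p in both. Me1, cytosolic malic enzyme, fell from 178.2 ± 4.67 to 26.8 ± 0.43 FPKM (-2.69, adjusted p = 3.21e-08).

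The enzymes that remove superoxide and peroxide moved both ways in the FPKM as deposited, since 5 of 13 rose and 6 fell past the adjusted p (32.9% and 35.1% of all tested genes), with a list median of -0.15, which was -0.098 without PBS replicate 1 and -0.10 without cisplatin replicate 1. Under the pan-leukocyte scaling 1 was higher and 11 lower (median -1.03), where 80.8% of all genes were lower, and under the Y-linked scaling 1 was higher and 12 lower (median -1.11), where 82.6% of all genes were lower. Prdx6 rose from 49.5 ± 1.37 to 115.7 ± 5.20 FPKM (log2 fold change 1.21, adjusted p = 7.93e-07), and by 0.31 and 0.22, short of the fold threshold, under these scalings. Sod3, the extracellular superoxide dismutase, fell from 22.1 ± 1.57 to 7.42 ± 0.18 (-1.46, adjusted p = 1.35e-06). Below the fold threshold, Sod2 of the mitochondria rose from 52.8 ± 1.40 to 68.4 ± 0.46 FPKM (0.37) and catalase (Cat) from 48.9 ± 1.62 to 65.6 ± 2.75 (0.42). Under the pan-leukocyte and Y-linked scalings Sod2 turned to -0.52 and -0.61 and Cat to -0.48 and -0.57, all past the adjusted p.

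Of 8 transcription factors known at promoters of these subunits and reported here, 5 rose and 2 fell at an adjusted p under 0.05. Among all tested genes the shares were 32.9% and 35.1%. Under either the pan-leukocyte or the Y-linked scaling 0 were higher and 6 lower, where 80.8% and 82.6% of all genes were lower. The list median was 0.49, turning to -0.38 and -0.47 under these scalings. Spi1, which encodes PU.1, rose from 55.5 ± 2.48 to 106.3 ± 6.19 FPKM (log2 fold change 0.92, adjusted p = 8.46e-06), and Irf8 rose from 18.8 ± 0.93 to 26.6 ± 0.92 (0.48). Under the pan-leukocyte and Y-linked scalings Spi1 did not pass (0.027 and -0.062, limma adjusted p = 0.578 and 0.535). Irf8 turned to -0.39 and -0.47 under them, past the adjusted p in both. Irf1, a factor of the interferon response, fell from 56.0 ± 1.25 to 22.3 ± 0.57 FPKM (-1.29, adjusted p = 2.87e-07), past both thresholds. The motifs for PU.1 and IRF factors in the promoters printed above are a description of sequence, and binding was not measured here.

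**Figure D4:**
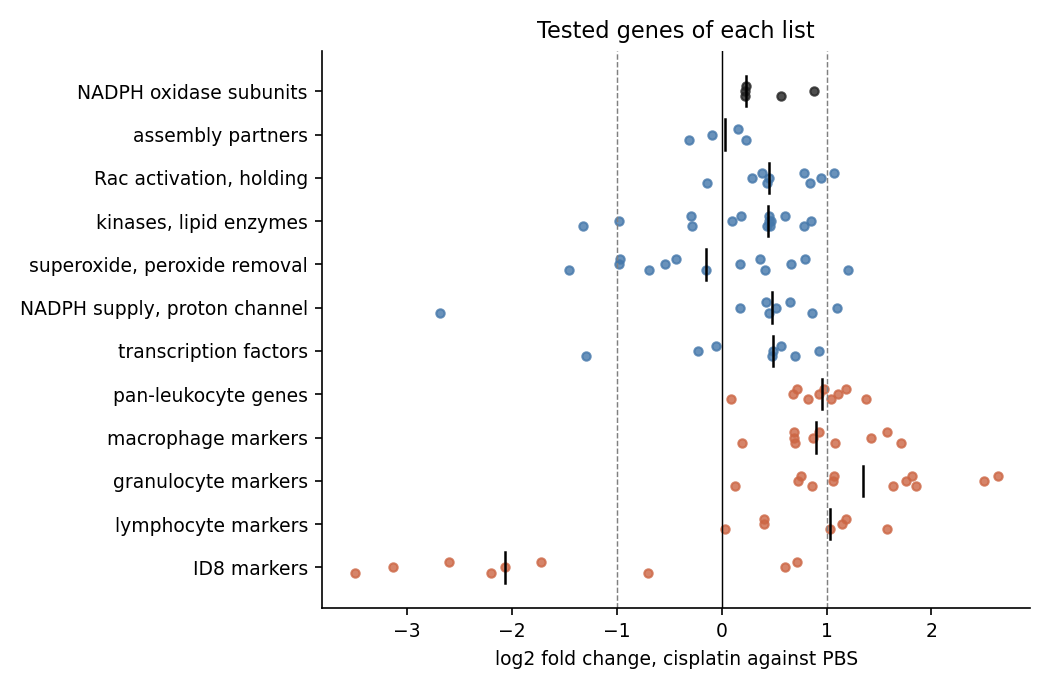
Log2 fold change (horizontal axis, cisplatin against PBS) of each tested gene of the oxidase subunits (black), the pathway lists (blue) and the marker lists (orange), with the list median as a vertical bar and dashed lines at -1 and 1. The subunits lie between 0.22 and 0.88, to the left of the pan-leukocyte median of 0.95, and fall below 0 under the pan-leukocyte and Y-linked scalings.

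The genes whose profile over the 6 libraries lay closest to each member, by root mean square distance of mean-centred log2(FPKM + 1) among 5159 protein-coding genes with a mean of at least 10 FPKM, were Fam168b (0.011) and Cct3 (0.015) for Cybb, Ppp1r14b (0.043) and Dus3l (0.060) for Cyba, Plekho2 (0.012) and Csf2rb (0.013) for Ncf1, Rpl22 (0.019) and Wdr1 (0.020) for Ncf4, and Cggbp1 (0.016) and Uba2 (0.019) for Rac2. No member was among the nearest pair of another.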

How the data were processed

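The deposited table holds FPKM for 54532 genes in 6 libraries, 3 per group as labelled. Per the submitters' processing notes the authors used fastp, HISAT2 2.0.5, featureCounts 1.5.0-p3 and mm10, whereas the methods of the study name LifeScope for alignment and counting and DESeq2 for testing. Annotation release and strand setting are not given in the sources used here. Of the identifiers, 54409 were found in GENCODE M21 (GRCm38), 98.3% with the same coordinates.

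FPKM multiplied by gene length gave whole multiples of a step in each library: 100% of values under 200 reads were whole within 0.1 read. Recovered reads summed to 15776238 to 17924686 per library, so counting error is small for the members. The FPKM denominator was 103.7% to 104.1% of that sum with cisplatin and 97.4% to 98.7% with PBS.

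Genes with at least 1 FPKM in 3 libraries (13441) were tested as log2(FPKM + 1) in limma 3.58.1 (R 4.3.3; eBayes with trend; group as the only term; two-sided; Benjamini-Hochberg). Since the table is FPKM, limma took the place of a count test. A gene was called past adjusted p = 0.05 with a change of 1 or more in size on the log2 scale, the thresholds of the study. A fold change on this scale understates that of low genes. In simulated data with 200 changed genes among 13100, 12% at fold 2 and 98% at fold 3 were called the right way. A true fold of 2 lies under the fold threshold on the log2(FPKM + 1) scale, and 98% of these genes passed the adjusted p the right way. Far fewer genes were changed in the simulation than in the data, where 32.9% of genes were higher and 35.1% lower past the adjusted p. Ratios were tested by exact permutation (SciPy 1.17.1).

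Members and lists were chosen with earlier results of these data known. Some single-gene results of the lists are not reported here and stand outside the list counts and medians, though not outside the fit. Named were the members, all called genes of the pathway lists and a set of genes picked by role. Also named were the 2 most abundant genes of each marker list and the 2 genes nearest each member. Ly6g, Mpo, Prtn3, Elane, Rac3, Ddx3y, Uty, Kdm5d and the untested markers were named after their values were seen. Alternatives covered pseudocount, filter, scaling, tool, thresholds, replicate block and leaving out each library. Promoters came from RefSeq (GRCm38.p6).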

Additional observations from a re-analysis of the deposited data

How the results depend on the processing

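The members kept their sign and side of the adjusted p under 18 of 21 alternatives each. Under Y-linked scaling the log2 fold changes reversed to -0.43 (Cybb), -0.11 (Cyba), -0.76 (Ncf1), -0.76 (Ncf4) and -0.77 (Rac2), and under pan-leukocyte scaling to -0.34, -0.019, -0.67, -0.67 and -0.68. Tested against a log2 fold change of 1 in size (limma treat), the values of 0.56, 0.88, 0.23, 0.22 and 0.22 had an adjusted p of 1. With the adjusted p alone as the threshold, 5 members were upregulated in place of 0.

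In place of 628 upregulated genes, pseudocount 0.1 gave 973, Y-linked scaling 85, pan-leukocyte scaling 95, voom on recovered reads 1227, the adjusted p alone 4424 and treat 240. In place of 1514 downregulated genes, Y-linked scaling gave 5181, pan-leukocyte scaling 4553, the adjusted p alone 4721 and treat 982. The upregulated share of calls was 29.3%, and 39.3% after quantile normalisation, 39.7% with voom, 1.61% and 2.04% under the Y-linked and pan-leukocyte scalings, and 48.4% with the adjusted p alone. The list medians reversed under Y-linked and pan-leukocyte scaling, respectively, to -0.94 and -0.85 for assembly partners, -0.45 and -0.37 for Rac activation, -0.54 and -0.45 for kinases and lipid enzymes, -0.47 and -0.39 for NADPH supply, and -0.47 and -0.38 for transcription factors. The median of superoxide and peroxide removal was -1.11 and -1.03 there, -0.30 with a filter of 5 FPKM, -0.10 after quantile normalisation, -0.068 with recovered totals and -0.073 with voom, in place of -0.15. That of assembly partners was 0.11 with recovered totals and 0.12 with voom, in place of 0.029. Rac2 changed by 0.14 after quantile normalisation. The cause of these shifts was not tested.

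Leaving out each library gave 0.54 to 0.58 for Cybb, 0.76 to 0.97 for Cyba, 0.23 to 0.25 for Ncf1, 0.19 to 0.27 for Ncf4 and 0.20 to 0.24 for Rac2. It gave 622 to 671 upregulated and 1513 to 1531 downregulated genes, and 0 members called. The list medians ranged from -0.22 to -0.098 for superoxide and peroxide removal and from 0.011 to 0.041 for assembly partners. The difference in log2 ratio of Ncf1 to Ncf4 changed sign, from -0.036 without PBS replicate 3 and -0.0042 without cisplatin replicate 3 to 0.046 without PBS replicate 2. The other ratios ranged from -0.43 to -0.18 (Cybb to Cyba), -0.35 to -0.30 (Ncf1 to Cybb) and 0.52 to 0.55 (Rac2 to Rac1).

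Same-numbered libraries did not deviate together (correlations -0.104, -0.0857 and -0.0235), so the numbers are not known to pair them. With the replicate block the adjusted p was 0.000425 for Cybb, 0.00288 for Cyba, 0.00464 for Ncf1, 0.0151 for Ncf4 and 0.00716 for Rac2, with 625 upregulated and 1515 downregulated genes, and it changed no member's call.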
